A study of Selaginella nipponica with 6 samples.

Results

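The *AP2*-like genes of the lycophyte *Selaginella nipponica* were examined as 8 unigenes, out of 206768 unigenes in the deposited counts. The euAP2 clade had 2 of them, TRINITY_DN104539_c0_g3 and TRINITY_DN103006_c0_g1. The ANT clade had the other 6, TRINITY_DN97829_c1_g1, TRINITY_DN93809_c0_g2, TRINITY_DN81844_c0_g1, TRINITY_DN102625_c1_g3, TRINITY_DN102529_c4_g2 and TRINITY_DN186068_c0_g1. They are written below without the common prefix. The 8 were those that the study placed in its tree of *AP2*-like genes, a rule that uses no measured value. The study compared erect shoots including their sporangia with the early prostrate shoots including emergent roots. There were 3 libraries of each type of shoot, all from untreated plants of a single wild population, with no age or genotype given. The replicates were subsamples of each type of shoot, so p-values here measure the spread between such subsamples. Roots are named only for the harvest of the prostrate shoots and sporangia only for that of the erect shoots. Growth phase and the organs harvested therefore cannot be told apart. The identifiers of the assembly carry no gene names, so the shoots were not checked against markers of roots or sporangia.

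*AP2*-like genes encode transcription factors that bind DNA through AP2 domains. In *Arabidopsis thaliana* the euAP2 clade includes *AP2*, *TOE1* and *SMZ*, which repress the onset of flowering and are targets of miR172, a microRNA that accumulates as plants age. The ANT clade of the same species includes *ANT*, which promotes the growth of organ primordia, the *PLETHORA* genes, which maintain the stem cells of the root, *BBM*, which can induce embryos, and *WRI1*, which activates the synthesis of fatty acids. In the tree of the study DN104539_c0_g3 lies within the group of *AP2*, *TOE1* and *SMZ*, while DN103006_c0_g1 branches off earlier in the euAP2 clade. Among the *ANT* unigenes DN97829_c1_g1 lies near *WRI1*, DN93809_c0_g2 next to *ANT* and DN186068_c0_g1 next to *BBM*. DN102625_c1_g3 and DN102529_c4_g2 lie in the wider group of *BBM* and the *PLETHORA* genes, and DN81844_c0_g1 branches off beside that group. The roles of these unigenes in *Selaginella* are not known from the counts.

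Libraries held between 18001174 and 20244006 counts in the erect shoots and between 15679196 and 17584167 in the prostrate shoots. Expression levels are in CPM, that is, counts per 1000000 of a library's TMM-scaled total. Transcript lengths were not used here, and longer transcripts give more fragments, so levels of different unigenes were not ranked, and pools and shares refer to counts and not to molecules. Log2 fold changes are erect over prostrate, so negative values are lower in the erect shoots, and each is given with its standard error (SE). In edgeR's quasi-likelihood test on 23275 unigenes, those with an adjusted p below 0.05 that changed by more than 1 on the log2 scale in either direction were called. Of all unigenes tested, 5.31% were called as lower and 7.94% as higher in the erect shoots. Of the 8 *AP2*-like unigenes 6 passed the filter on low counts, 5 of them were called as lower in the erect shoots and none as higher. The 5 include DN93809_c0_g2, which passed the filter through its prostrate libraries alone, and 4 were called among the 5 members with a mean count of at least 50. DESeq2 and limma-voom called no member they tested as higher, and the unadjusted p of DN97829_c1_g1, the only member with a positive log2 fold change, was 0.293 in edgeR. The members were chosen with results of these libraries known, so the count is a description beside the background.

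The *euAP2* unigenes were both lower in the erect shoots, at 18.7 and 22.7% of the prostrate level. DN104539_c0_g3, the relative of *AP2* and *TOE1*, had 8.13, 9.96 and 8.91 CPM in the erect libraries and 39.1, 52.2 and 27.5 CPM in the prostrate libraries. The highest erect library lay below the lowest prostrate library, and the prostrate libraries spread more widely than the erect ones. The erect mean of 9.0 ± 0.916 CPM was 22.7% of the prostrate mean of 39.6 ± 12.3 CPM (SD, n = 3 each; log2 fold change -2.14, SE 0.272, edgeR adjusted p = 0.00244). Of all tested unigenes, 3.80% had a log2 fold change as low or lower. In whole tissue, fewer cells that express a gene and less RNA per cell cannot be told apart.

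DN103006_c0_g1, the earlier branch of the euAP2 clade, had 10.2, 7.21 and 6.87 CPM in the erect libraries and 38.1, 52.8 and 39.0 CPM in the prostrate libraries. Here also the types of shoots did not overlap, and the erect mean of 8.08 ± 1.80 CPM was 18.7% of the prostrate mean of 43.3 ± 8.27 CPM (SD, n = 3 each). Its log2 fold change of -2.42 (SE 0.249, edgeR adjusted p = 0.00101) was reached or exceeded by 3.00% of all tested unigenes in the same direction. Groups of libraries that do not overlap, with the erect shoots lower, were found for 16.8% of all tested unigenes. Both *euAP2* unigenes were called with each library left out in turn, DN104539_c0_g3 at log2 fold changes between -2.37 and -1.90 and DN103006_c0_g1 between -2.60 and -2.27. Counts summed over the Trinity component of DN103006_c0_g1, a group of assembled transcripts that share sequence, gave no call (log2 fold change 0.27). The plot of CPM by library shows both unigenes beside the *ANT* unigenes.

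**Figure D1:**
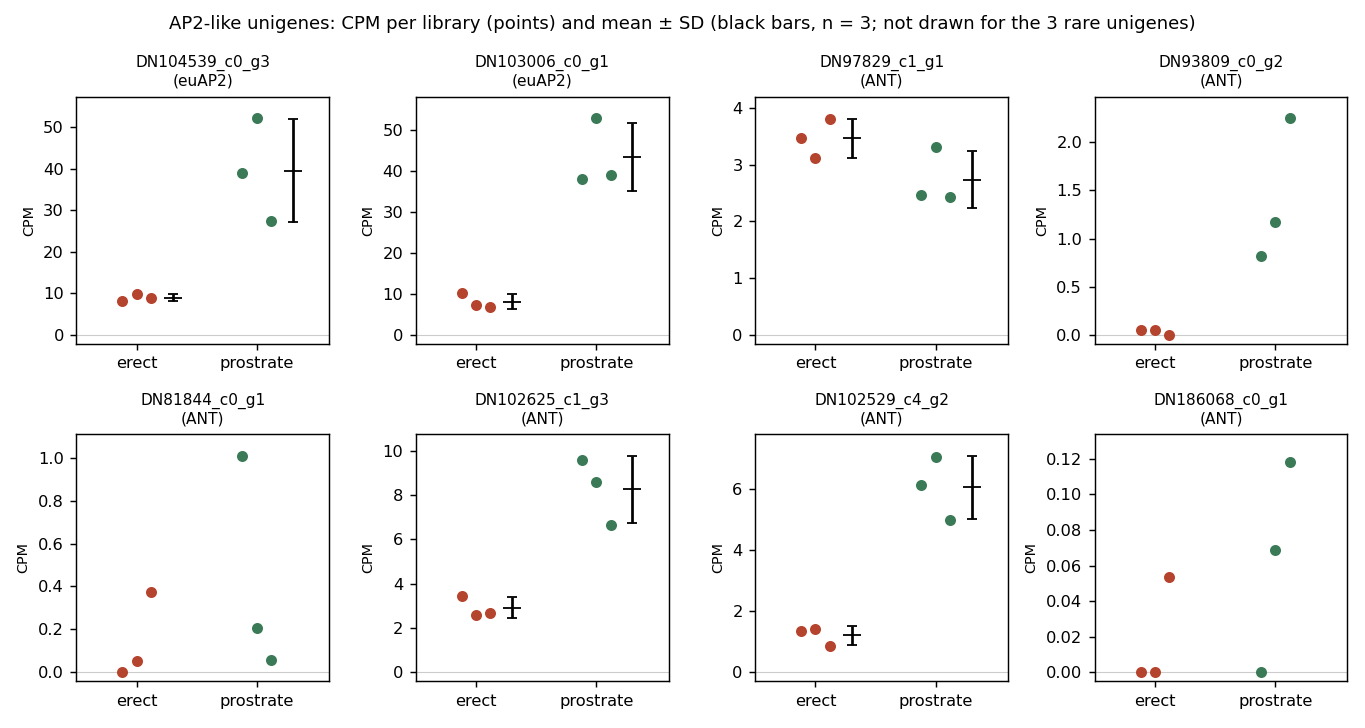
CPM (vertical axes, each panel with its own scale) of the 8 *AP2*-like unigenes in the 3 erect and 3 prostrate libraries. Points are libraries and black bars are mean ± SD. In 5 panels (DN104539_c0_g3, DN103006_c0_g1, DN93809_c0_g2, DN102625_c1_g3 and DN102529_c4_g2) every erect point lies below every prostrate point, and in the other panels the points overlap.

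Added together, the pair formed a euAP2 pool of 18.3, 17.2 and 15.8 CPM in the erect libraries and 77.2, 105 and 66.5 CPM in the prostrate libraries. The erect pool of 17.1 ± 1.25 CPM was 20.6% of the prostrate pool of 82.9 ± 19.9 CPM (SD, n = 3 each). Of the difference of -65.8 CPM between the types of shoots, DN104539_c0_g3 carried 46.5% and DN103006_c0_g1 carried 53.5%, so neither unigene alone made up the change of the pool. The make-up of the pool was close to even in both types of shoots. DN104539_c0_g3 took 44.5, 58.0 and 56.5% of its counts in the erect libraries and 50.7, 49.7 and 41.4% in the prostrate libraries. The means of 53.0% ± 7.40 and 47.3% ± 5.08 (SD, n = 3 each) differed by 5.72 percentage points, and the libraries overlapped (two-sided exact permutation test, p = 0.3, adjusted p = 0.3 over the 3 shares tested). Some of the spread was larger than counting error. In erect replicate 1 the exact 95% interval of the share ran from 39.4 to 49.6% and in erect replicate 2 from 52.4 to 63.5%. Leaving out single libraries, the difference stayed between 2.80 and 9.97 points.

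Of the *ANT* unigenes, 3 were called as lower in the erect shoots, among them DN93809_c0_g2, which passed the filter through its prostrate libraries alone. DN102625_c1_g3, from the wider group of *BBM* and *PLETHORA*, had 3.46, 2.58 and 2.68 CPM in the erect libraries and 9.58, 8.56 and 6.62 CPM in the prostrate libraries. All erect libraries lay below all prostrate libraries, and the erect mean of 2.91 ± 0.482 CPM was 35.3% of the prostrate mean of 8.26 ± 1.51 CPM (SD, n = 3 each; log2 fold change -1.5, SE 0.286, edgeR adjusted p = 0.0125). It was not called without erect replicate 2 (log2 fold change -1.41, edgeR adjusted p = 0.0659) or without erect replicate 3 (log2 fold change -1.44, adjusted p = 0.054). The sum of its Trinity component was not called (log2 fold change 0.17, adjusted p = 0.583).

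DN102529_c4_g2, from the same wider group, had 1.35, 1.40 and 0.859 CPM in the erect libraries and 6.12, 7.04 and 4.97 CPM in the prostrate libraries. Without overlap, the erect mean of 1.2 ± 0.298 CPM was 19.9% of the prostrate mean of 6.04 ± 1.04 CPM (SD, n = 3 each; log2 fold change -2.32, SE 0.343, edgeR adjusted p = 0.00458). It was called whichever library was left out, but not as the sum of its Trinity component (log2 fold change -0.34, edgeR adjusted p = 0.418). The erect libraries held only 28, 26 and 16 of its counts, and the spread between them (coefficient of variation 24.8%) was little above the 20.7% that counting alone would give.

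DN93809_c0_g2, next to *ANT* in the tree, was nearly undetected in the erect shoots, with 1, 1 and 0 counts in erect replicates 1, 2 and 3 and 13, 17 and 38 counts in prostrate replicates 1, 2 and 3. It passed the filter on low counts through its prostrate libraries alone. Counts per scaled total in the erect shoots were 0.024 of those in the prostrate shoots, between 0.00285 and 0.09 at 95% by counting error alone. edgeR called it at an adjusted p of 0.00603, but a unigene that enters the test only through the shoots where it is high leans to that direction, so the counts are given as a description. Prostrate replicate 3 held 55.9% of its prostrate counts. Without that library the ratio was 0.0349 with an interval from 0.00404 to 0.137.

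DN97829_c1_g1, the unigene near *WRI1*, was the exception among the members tested. It had 3.46, 3.12 and 3.81 CPM in the erect libraries and 2.46, 3.31 and 2.42 CPM in the prostrate libraries. The libraries overlapped, as prostrate replicate 2 lay above erect replicate 2. The erect mean was 3.47 ± 0.345 CPM and the prostrate mean 2.73 ± 0.504 CPM (SD, n = 3 each; log2 fold change 0.34, SE 0.306, edgeR adjusted p = 0.512), a difference that did not pass the test. Its log2 fold change stayed above 0 with each library left out in turn, between 0.24 and 0.49. The spread between erect libraries (coefficient of variation 9.94%) did not exceed the 12.2% that counting alone would give, and in the prostrate libraries it was 18.5% against 15.3% from counting.

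The remaining *ANT* unigenes were too rare for a test. DN81844_c0_g1 had 0, 1 and 7 counts in erect replicates 1, 2 and 3 and 16, 3 and 1 counts in prostrate replicates 1, 2 and 3. Erect replicate 3 held 87.5% of the erect counts and prostrate replicate 1 held 80.0% of the prostrate counts, so each sum rests mostly on a single library. The ratio of counts per scaled total, erect over prostrate, was 0.326, and its 95% bounds of 0.124 and 0.773 reflect counting error, not the spread between libraries. Without prostrate replicate 1 the ratio was 1.08 (0.29 to 4.91), and without erect replicate 3 it was 0.06 (0.00145 to 0.375), so no direction can be given. DN186068_c0_g1, next to *BBM*, had a single count in erect replicate 3 against 1 count in prostrate replicate 2 and 2 counts in prostrate replicate 3. Its ratio of 0.272 had an interval from 0.00517 to 3.38, which at this depth leaves no detectable difference. A sum of 3 counts in a library, the limit that a count of 0 allows, corresponds to between 0.144 and 0.161 CPM in the erect libraries and between 0.177 and 0.207 CPM in the prostrate libraries.

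The 6 *ANT* unigenes together formed a pool of 8.32, 7.21 and 7.78 CPM in the erect libraries and 20.0, 20.4 and 16.4 CPM in the prostrate libraries. The erect pool of 7.77 ± 0.556 CPM was 41.1% of the prostrate pool of 18.9 ± 2.17 CPM (SD, n = 3 each), where the euAP2 pool was at 20.6%. DN102625_c1_g3 carried 47.9% and DN102529_c4_g2 43.4% of the difference of -11.2 CPM. DN93809_c0_g2 carried 12.4%, while the mean of DN97829_c1_g1, which did not pass the test, was 0.733 CPM higher in the erect shoots. Without DN97829_c1_g1 the remaining *ANT* unigenes summed to 4.31 ± 0.482 CPM in the erect shoots, or 26.6% of the 16.2 ± 1.91 CPM in the prostrate shoots. The plot of both pools shows the same members stacked by library.

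**Figure D2:**
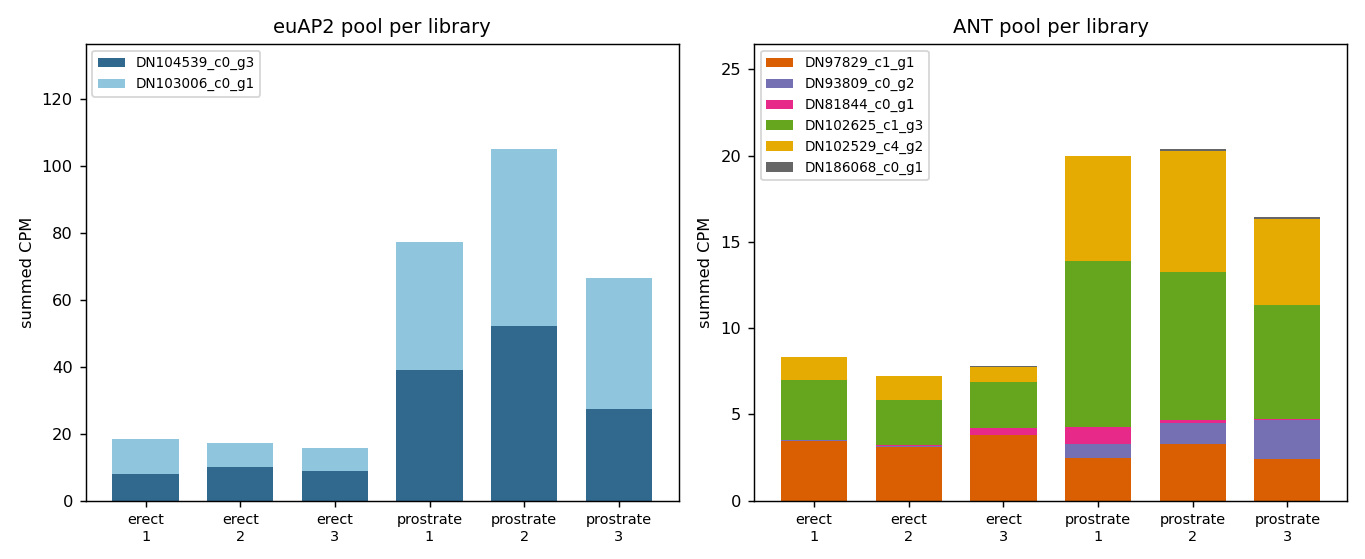
Summed CPM (vertical axes from 0, different scales) of the euAP2 pool and the ANT pool in each erect and prostrate library, with a colour for each unigene. Erect bars reach 15.8 to 18.3 CPM in the euAP2 pool and 7.21 to 8.32 CPM in the ANT pool, below every prostrate bar, while the segment of DN97829_c1_g1 lies between 2.42 and 3.81 CPM in all libraries.

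The composition of the ANT pool accordingly differed between the shoots. DN97829_c1_g1 took 41.6, 43.3 and 49.0% of the counts of the ANT pool in the erect libraries and 12.3, 16.3 and 14.7% in the prostrate libraries. The lowest bound of the exact 95% intervals in the erect libraries, 34.2%, lay above the highest bound in the prostrate libraries, 21.0%. The means of 44.6% ± 3.85 and 14.4% ± 2.00 (SD, n = 3 each) differed by 30.2 percentage points (two-sided exact permutation test, p = 0.1, the smallest that 3 libraries against 3 allow, adjusted p = 0.15 over the 3 shares tested). DN102529_c4_g2 took 16.2, 19.4 and 11.0% of the pool in the erect libraries and 30.6, 34.6 and 30.2% in the prostrate libraries, without overlap. The share of DN102625_c1_g3 changed less, with 41.6, 35.8 and 34.5% in the erect libraries and 47.9, 42.0 and 40.3% in the prostrate libraries, which overlapped.

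Over the whole family, the *AP2*-like unigenes had 26.6, 24.4 and 23.6 CPM in the erect libraries and 97.2, 125 and 82.9 CPM in the prostrate libraries. The euAP2 pool made up 68.7, 70.4 and 67.0% of these counts in the erect libraries and 79.4, 83.8 and 80.2% in the prostrate libraries. The difference of the means was -12.4 percentage points (two-sided exact permutation test, p = 0.1, the smallest possible, adjusted p = 0.15 over the 3 shares tested). It depended on the weight of the members. When each unigene was first divided by its own mean CPM, so that rare and abundant members counted equally, the difference was -6.16 points (two-sided exact permutation test, p = 0.4).

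**Figure D3:**
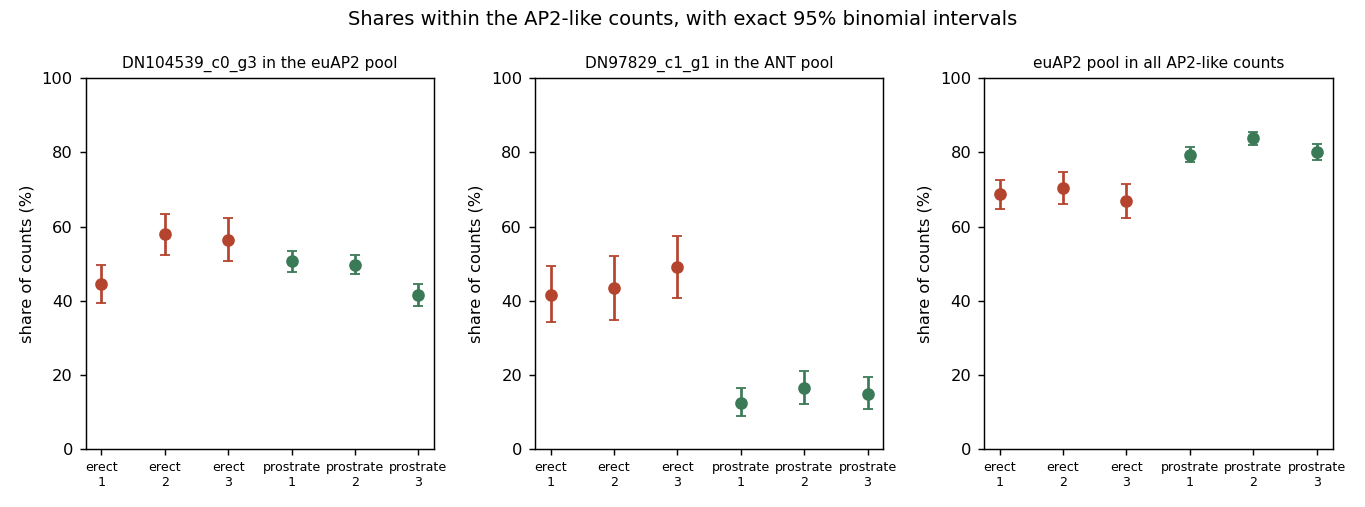
Share of counts (vertical axes, 0 to 100%) in each erect and prostrate library for DN104539_c0_g3 in the euAP2 pool, DN97829_c1_g1 in the ANT pool and the euAP2 pool in all *AP2*-like counts. Points are libraries and bars are exact 95% binomial intervals for counting error. The types of shoots overlap in the first panel and are apart in the other 2 panels.

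The order of the replicates of a type of shoot was shared by some members and not by others. In the prostrate shoots, replicate 2 was the highest library for DN104539_c0_g3, DN103006_c0_g1, DN97829_c1_g1 and DN102529_c4_g2. Replicate 1 was the highest for DN102625_c1_g3 and DN81844_c0_g1, and replicate 3 for DN93809_c0_g2 and DN186068_c0_g1. Replicate 3 was the lowest for DN104539_c0_g3, DN97829_c1_g1, DN102625_c1_g3, DN102529_c4_g2 and DN81844_c0_g1, and replicate 1 for the others. The order of DN93809_c0_g2, DN81844_c0_g1 and DN186068_c0_g1 rests on few counts. The highest prostrate library was 1.90 times the lowest for DN104539_c0_g3 and 1.39 times the lowest for DN103006_c0_g1. In the erect libraries the same ratio was 1.22 for DN104539_c0_g3 and 1.48 for DN103006_c0_g1. Erect replicate 1 was the highest for DN103006_c0_g1 and DN102625_c1_g3, replicate 2 for DN104539_c0_g3 and DN102529_c4_g2, and replicate 3 for DN97829_c1_g1.

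Counts could have been split between a member and other unigenes of the same Trinity component. What these other unigenes encode was not known here. The components of the 8 members held 13 of them, of which 9 were tested. None of the 9 was called in either direction by edgeR. With 13.2% of all tested unigenes called, that count is near the background. Of the 9, 4 had an unadjusted p under 0.05 in edgeR. The share of all tested unigenes under that p was not computed and is at least the 13.2% called, so this count is a description. DESeq2 called 1 of them, DN104539_c0_g1, as lower in the erect shoots, and limma-voom called none. In the component of DN103006_c0_g1 the other unigenes were higher in every erect library than in every prostrate library without passing the test. The same held for DN102625_c1_g5 in the component of DN102625_c1_g3, so 3 of the 9 had this pattern. Over all tested unigenes it was found for 19.4%. DN103006_c0_g2 had 99.3 ± 7.27 CPM in the erect and 73.4 ± 11.9 CPM in the prostrate shoots (log2 fold change 0.44, edgeR adjusted p = 0.153), and DN103006_c0_g3 had 237 ± 29.7 and 170 ± 29.3 CPM (SD, n = 3 each; log2 fold change 0.47, adjusted p = 0.155). DN103006_c0_g1 held 3.23, 2.1 and 1.83% of the counts of its component in the erect libraries and 15.4, 16.4 and 13.4% in the prostrate libraries. The summed component therefore had a log2 fold change of 0.27 (adjusted p = 0.319 from edgeR on component sums), opposite in sign to that of the *euAP2* unigene.

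The component of DN104539_c0_g3 was lower in the erect shoots also as a sum (log2 fold change -1.38, edgeR adjusted p = 0.0247). DN104539_c0_g3 held 19.4, 23.3 and 13.5% of the component's counts in the erect libraries and 23.7, 34.6 and 34.4% in the prostrate libraries. Most of the sum thus lay on other unigenes. DN104539_c0_g1 of this component had 580, 520 and 931 counts in erect replicates 1, 2 and 3 and 1912, 1343 and 814 counts in prostrate replicates 1, 2 and 3, or 35.3 ± 12.7 CPM and 87.1 ± 36.5 CPM (SD, n = 3 each). These overlapped, as prostrate replicate 3 lay below erect replicate 3 (log2 fold change -1.30, edgeR adjusted p = 0.0581). DN104539_c0_g2 had 5.95 ± 1.12 CPM in the erect and 5.23 ± 0.823 CPM in the prostrate shoots (SD, n = 3 each; adjusted p = 0.714). The components of the *ANT* unigenes DN102625_c1_g3 and DN102529_c4_g2, not called as sums, also held more counts on other unigenes than on the member. DN102529_c4_g2 took between 0.808 and 1.2% of the counts of its component in the erect libraries and between 3.62 and 5.36% in the prostrate libraries. DN97829_c1_g1, DN81844_c0_g1 and DN186068_c0_g1 were alone in their components. The component of DN93809_c0_g2 held a further unigene with 2 counts in prostrate replicate 1 and 1 count in prostrate replicate 3.

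**Figure D4:**
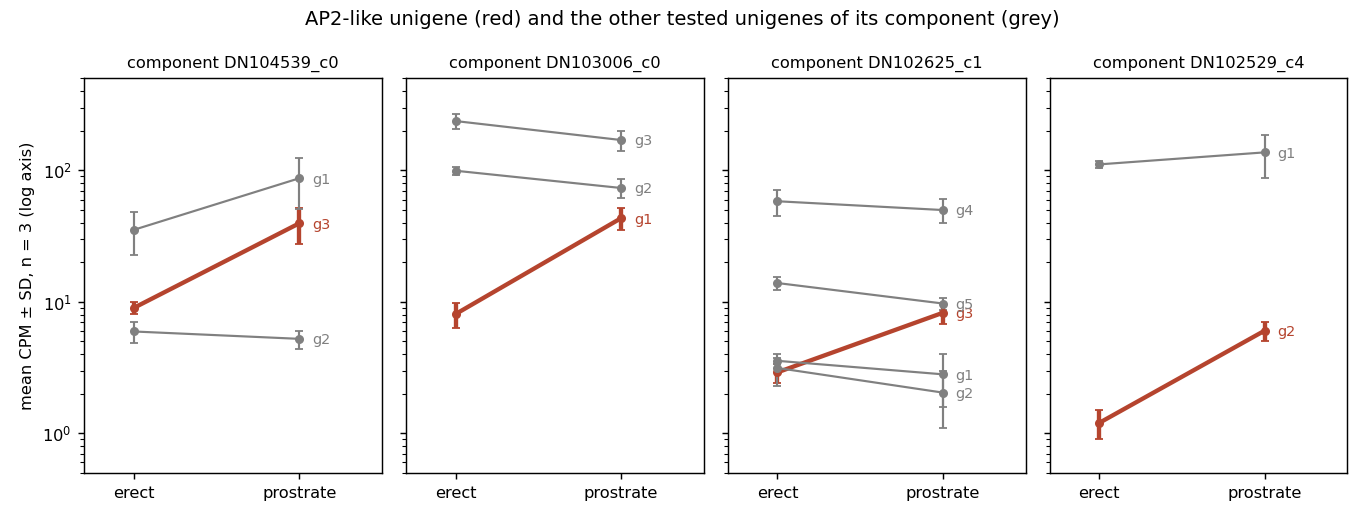
Mean CPM ± SD (n = 3, log axis) in the erect and prostrate shoots for 4 *AP2*-like unigenes (red) and the other tested unigenes of their Trinity components (grey, labelled by the last part of the identifier). The red lines are lower in the erect shoots, and none of the grey lines was called by edgeR, with DN104539_c0_g1 the closest at an adjusted p of 0.0581. Of all tested unigenes 13.2% were called in either direction.

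In *Arabidopsis* many but not all *SPL* genes are repressed by miR156 in young plants. Among these are genes that promote the change of phase and activate miR172, the repressor of *euAP2* genes. The list of 12 *SPL* unigenes holds those in the tree of the study and DN105179_c0_g2, whose sequence overlaps that of DN103335_c1_g1, so that reads of this pair could have been split and its values are uncertain. Of the 12, 2 (DN105179_c0_g2 among them) were called as higher and 2 (DN103335_c0_g1 among them) as lower in the erect shoots. Over all tested unigenes these calls were 7.94% and 5.31%. The median log2 fold change of the 12 was -0.14, against -0.01 for all tested unigenes. It was 0.43 for the 6 of the miR156 clade, counting DN105179_c0_g2, and -0.36 for the 6 of the other clades. Each of these parts held 1 unigene called as higher and 1 as lower. DN105179_c0_g2 of the miR156 clade had 48.3 ± 9.23 CPM in the erect and 13.0 ± 1.94 CPM in the prostrate shoots (SD, n = 3 each), with a log2 fold change of 1.90 (edgeR adjusted p = 0.00171). DN103335_c0_g1 of the same clade had 0.343 ± 0.0644 and 8.22 ± 1.5 CPM (SD, n = 3 each), with a log2 fold change of -4.55 (edgeR adjusted p = 0.000308). Its erect libraries held 8, 5 and 7 counts, so it passed the filter on low counts through its prostrate libraries alone. Like that of DN93809_c0_g2, its call is therefore given as a description. Of the RTYF clade, DN101273_c2_g1 was called as higher (log2 fold change 1.65) and DN106508_c2_g1 as lower (log2 fold change -2.71). The study reported no miR172 site in the *AP2*-like genes of *S. nipponica* and cites an origin of *MIR172* after lycophytes had split off. It also found no miR156 site in DN100480_c3_g6 of the miR156 clade. Because these sites were missing, the next ratio compares counts only. By RT-qPCR, which was not analysed here, the study reported miR156 as higher in the prostrate shoots. By the same method it found DN100480_c3_g6, DN100333_c1_g1 and DN101273_c2_g1 higher in the erect shoots, and DN103335_c0_g1 lower without significance. For the ratio of counts, 6 *SPL* unigenes were summed, those of the miR156 clade with DN105179_c0_g2 added to its overlapping partner. There were 1.88, 2.03 and 2.07 *euAP2* counts per 100 *SPL* counts in the erect libraries and 10.4, 14.9 and 12.8 in the prostrate libraries. The *SPL* pool itself was 859 ± 106 CPM in the erect and 656 ± 118 CPM in the prostrate shoots (SD, n = 3 each), so most of the difference in this ratio came from the *euAP2* counts.

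**Figure D5:**
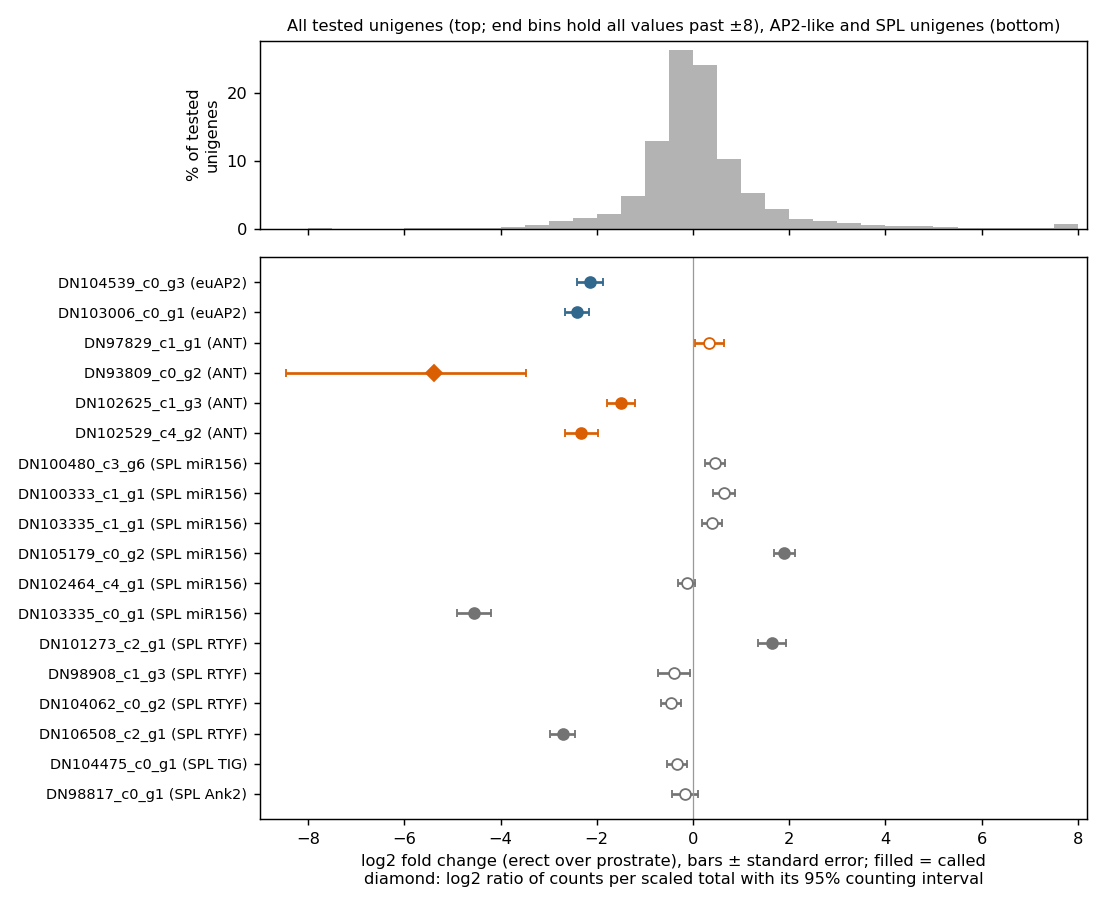
Log2 fold changes of the erect over the prostrate shoots (horizontal axis) for the 6 tested *AP2*-like unigenes (blue euAP2, orange ANT) and 12 *SPL* unigenes (grey), with standard errors as bars and called unigenes filled. The diamond is the ratio of counts of DN93809_c0_g2 with its counting interval, and the upper panel is the distribution over all 23275 tested unigenes. The *AP2*-like unigenes lie below 0 except DN97829_c1_g1, and the *SPL* unigenes lie on both sides.

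The profiles of the *euAP2* unigenes over the 6 libraries were compared with all others as the root mean square difference of log2(CPM + 1), each unigene centred on its own mean. DN103006_c0_g1 was number 73 in closeness to DN104539_c0_g3 among 23274 unigenes, at a difference of 0.317, where the median unigene was at 1.09. From the side of DN103006_c0_g1, DN104539_c0_g3 was number 46, and the median unigene was at 1.22. The closest profiles to DN104539_c0_g3 were those of DN100274_c0_g1 (0.0728) and DN94537_c0_g2 (0.177), and those closest to DN103006_c0_g1 were DN101613_c2_g1 (0.13) and DN100749_c3_g1 (0.134). All 4 had negative log2 fold changes, between -4.78 and -2.08. The measure follows the difference between the types of shoots, and the added 1 compresses the profiles of rare unigenes such as DN94537_c0_g2, which had 0.126 CPM in the erect and 3.56 CPM in the prostrate shoots.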

How the data were processed

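The authors assembled the reads of 6 libraries with Trinity, used the longest transcript per gene (unigene), and deposited estimated counts, neither scaled for library size nor for length. The submitters' processing notes name Trimmomatic 0.36 and HISAT2 2.1.0. No counting program is named, so it is unknown how reads were shared between similar unigenes, which bears on members with partners in their component.

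Estimated counts were rounded and tested with edgeR 4.0.16 in R 4.3.3 (glmQLFit and glmQLFTest, TMM scaling, filterByExpr at minimum count 10 and total 15, prior count 0.125). All 6 libraries were fitted by type of shoot with no covariate, with Benjamini-Hochberg adjustment over 23275 unigenes. Standard errors are the unshrunken log2 fold change divided by the root of F. Intervals of shares and ratios are exact 95% Clopper-Pearson intervals (SciPy 1.17.1) and cover counting error only. Shares were compared with the exact permutation test over the libraries, and pools were not tested. Replicates differed by more than sampling noise (chi-square of 22.2 to 87.2 per degree of freedom), so none was a copy. The tests were first run on simulated data.

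Alternatives were DESeq2 1.42.0, limma-voom (limma 3.58.1), other scalings and filters, a replicate block, unrounded counts, each library left out and component sums. Unigenes named are the 8 members, the *SPL* list, the other unigenes of the members' components and the 2 closest profiles of each *euAP2* unigene. Members, lists and tests were chosen with earlier results of these data known. Sequences, TPM and RT-qPCR values were not analysed here.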

Additional observations from a re-analysis of the deposited data

How the results depend on the processing

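Of the 144 values recomputed under an alternative for the *AP2*-like unigenes, their pools and shares, 138 were labelled as the same. The rule differed by kind of value. Log2 fold changes had to keep their direction and their side of the threshold, and pools had to stay within the replicate spread. For shares only the sign was compared, so -6.16 points in place of -12.4 for the euAP2 share passed as the same. The number of called members passed at 4 as well as at 5. Counting by component changed the most, as it adds the counts of the other unigenes: the log2 fold change was 0.27 for DN103006_c0_g1, 0.17 for DN102625_c1_g3 and -0.34 for DN102529_c4_g2, and 2 members were called. Leaving out single libraries, 4 to 5 members were called, and DN102625_c1_g3 had log2 fold changes between -1.66 and -1.41. A mean count of at least 50 removed DN93809_c0_g2. Without a filter, DN81844_c0_g1 had an adjusted p of 0.476 and DN186068_c0_g1 of 0.621 in edgeR. Library totals in place of TMM placed the median over all tested unigenes at 0.10 instead of -0.01 on the log2 scale, and gave log2 ratios of -2.16 for the euAP2 pool and -1.17 for the ANT pool.

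Replicate numbers did not pair the libraries (same-numbered libraries deviated with correlations of -0.321, 0.047 and -0.145). With the replicate number as a block the same 5 members were called, with DN104539_c0_g3 at -2.10, and 701 unigenes were lower and 1152 higher over the series, against 1236 and 1847 without it. The number lower was 2167 of 42136 tested with DESeq2 (2091 higher) and 3470 of 206555 without a filter (2666 higher). In both more were lower than higher, unlike in the background given beside the *AP2*-like count. By component the number lower was 811 of 16188 (1247 higher), and with a mean count of at least 50 it was 703 of 14745 (1016 higher). It was 634 to 1360 when single libraries were left out, with 25221 to 25908 tested. These are numbers and not shares, as the settings tested different numbers of unigenes. Other causes of the differences were not tested.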
